A study of Mus musculus with 22 samples.

Results

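A set of 9 inflammatory genes was followed through mouse bone marrow stroma and leukaemia cells: the IL-6 family cytokines Il6, Lif and Il11, the alarmin Il33, the CC chemokines Ccl2 and Ccl7, the CXC chemokines Cxcl1 and Cxcl5, and Ptgs2, which encodes the inducible cyclooxygenase COX-2. They were chosen by symbol, as 9 of the 27179 gene rows of the count table. The table covers 22 RNA-seq libraries in 6 groups, all from C57BL/6J mice. Mesenchymal stem cells (MSC) expanded from sorted marrow cells were either Lama4-/- (KO) or wild type (WT). LAMA4 is the alpha4 chain of laminins in vascular and marrow basement membranes. KO_MSC_AML (n = 3) and WT_MSC_AML (n = 5) are MSC sorted as CD45-, CD44- and Sca1+ cells after 48 h with acute myeloid leukaemia (AML) cells carrying MLL-AF9. KO_MSC (n = 4) and WT_MSC (n = 4) are MSC without AML cells. KO_AML (n = 3) and WT_AML (n = 3) are the CD45.1+ AML cells sorted out of co-culture with KO or WT MSC. The leukaemia was made by retroviral transfer of human MLL-AF9 into marrow progenitors (lineage-negative, KIT+), and its own genotype is labelled wild type in both groups. Ages on the labels were 10 to 14 weeks for MSC and 10 to 12 weeks for AML. Both cell types had been expanded in culture. Since no label ties a replicate to an animal or a culture of its own, the p-values speak of the spread among these libraries alone, some of which may be technical.

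Stromal cells make these factors when NF-kappaB, AP-1 and C/EBP transcription factors are activated, for example by interleukin-1, tumour necrosis factor or Toll-like receptor ligands. IL-6, LIF and IL-11 each bind their own receptor chain and then signal through the shared subunit gp130 to STAT3. CCL2 and CCL7 draw monocytes through CCR2, CXCL1 and CXCL5 draw neutrophils through CXCR2, and COX-2 makes the prostaglandin H2 from which prostaglandin E2 and prostacyclin are formed. In bone marrow, stromal chemokines regulate the release of monocytes and neutrophils into blood.

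The chemokine genes lie in 2 clusters (RefSeq annotation, GRCm38.p6). Ccl2 (chromosome 11, 82035577 to 82037452, plus strand) and Ccl7 (chromosome 11, 82045712 to 82047525, plus strand) are neighbours 8.26 kb apart. Cxcl5 (chromosome 5, 90759298 to 90761625) and Cxcl1 (chromosome 5, 90891245 to 90893121) are on the plus strand, 130 kb apart. The cytokines are scattered: Il6 on chromosome 5 (30013114 to 30019975), Lif on chromosome 11 (4257568 to 4272514), Il11 on chromosome 7 (4772373 to 4782907, minus strand) and Il33 on chromosome 19 (29925113 to 29960718). Ptgs2 is on chromosome 1 (150100031 to 150108234).

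Sequence before the annotated start was taken from the RefSeq promoter table of GRCm38.p6, which had entries for 6 of the 9 genes (Il6, Lif, Il11, Il33, Cxcl1 and Ptgs2; Il11 and Il33 with 2 starts each), and none for Ccl2, Ccl7 and Cxcl5. The 250 bases upstream were searched on both strands for kappaB (GGNNNTTCC), AP-1 (TGANTCA), CRE (TGACGTCA) and C/EBP (TTNNGNAA) letters. The 4 windows below, all on the plus strand, show 3 genes widely used as readouts of NF-kappaB or C/EBP activity (Il6, Cxcl1 and Ptgs2) and Lif, the one gene with a promoter entry that passed the genotype test in co-cultured MSC. Capitals mark a match on either strand. The windows are chr5:30012864-30013113 for Il6, chr11:4257318-4257567 for Lif, chr5:90890995-90891244 for Cxcl1 and chr1:150099781-150100030 for Ptgs2.
Il6: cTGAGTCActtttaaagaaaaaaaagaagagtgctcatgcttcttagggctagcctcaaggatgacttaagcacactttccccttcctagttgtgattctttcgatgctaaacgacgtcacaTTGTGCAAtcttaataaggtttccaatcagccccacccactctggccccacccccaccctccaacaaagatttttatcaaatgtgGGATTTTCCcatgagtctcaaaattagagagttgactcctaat
Lif: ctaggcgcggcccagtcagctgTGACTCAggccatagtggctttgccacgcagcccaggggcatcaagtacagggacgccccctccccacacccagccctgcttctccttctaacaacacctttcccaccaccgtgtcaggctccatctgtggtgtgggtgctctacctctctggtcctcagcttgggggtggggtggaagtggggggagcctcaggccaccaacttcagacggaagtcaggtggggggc
Cxcl1: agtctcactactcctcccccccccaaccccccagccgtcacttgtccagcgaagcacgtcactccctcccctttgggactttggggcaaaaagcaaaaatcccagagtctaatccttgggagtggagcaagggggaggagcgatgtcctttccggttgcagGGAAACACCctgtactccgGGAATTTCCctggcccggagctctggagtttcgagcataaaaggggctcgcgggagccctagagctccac
Ptgs2: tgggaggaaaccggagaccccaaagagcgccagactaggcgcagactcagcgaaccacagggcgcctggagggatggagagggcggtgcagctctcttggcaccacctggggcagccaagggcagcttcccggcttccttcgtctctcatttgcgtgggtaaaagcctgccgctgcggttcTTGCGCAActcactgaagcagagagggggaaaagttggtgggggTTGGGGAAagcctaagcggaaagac

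Counting back from the start, the Il6 window held AP-1 letters at -249 to -243, C/EBP letters at -128 to -121 and a kappaB match at -43 to -35. Cxcl1 held 2 kappaB matches, at -89 to -81 and -70 to -62. Lif held a single AP-1 match at -228 to -222, and Ptgs2 held C/EBP letters at -69 to -62 and -25 to -18. Over the 8 windows of the 6 genes, kappaB letters were in 2, AP-1 in 3, C/EBP in 4 and CRE in 0. Of all 32851 promoter windows of the same length, 15.7% held the kappaB letters, 6.75% the AP-1 letters, 36.8% the C/EBP letters and 1.55% the CRE letters. These are letter matches and not measured binding sites.

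**Figure D1:**
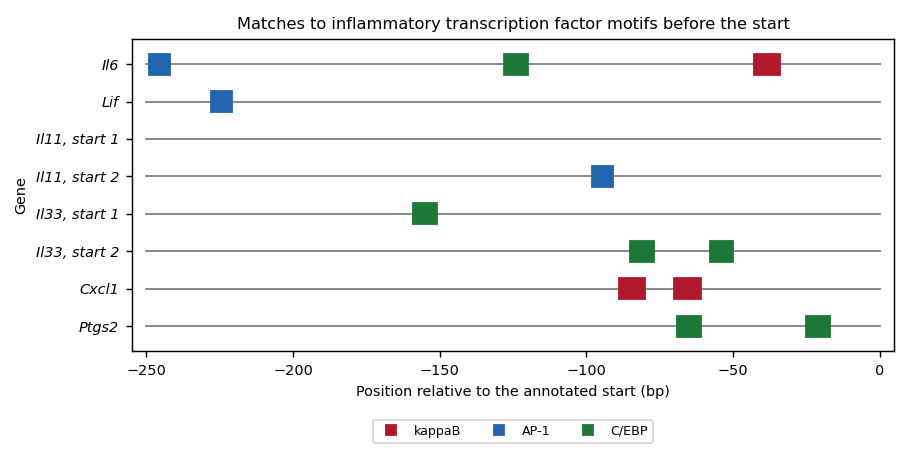
Positions of kappaB, AP-1 and C/EBP letter matches in the 250 bp before the annotated start of the 6 genes with a promoter entry (x axis, bp from the start; 1 line per start). Cxcl1 has 2 kappaB matches, Il6 has 1 match of each kind, and the first Il11 start has none.

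Depth ran from 11201751 to 24826876 counts per library. Levels are CPM, counts relative to library size, scaled with TMM factors. Lama4 followed the MSC labels, at most 0.231 CPM in KO_MSC_AML and 1.04 CPM in KO_MSC, against at least 201 CPM in WT_MSC_AML and 320 CPM in WT_MSC. KO_MSC_AML replicate 3 has an AML cell type label beside an MSC title; its Ptprc, which encodes CD45, was 0.517 CPM, and it was analysed as MSC. WT_MSC replicate 1 stood apart from its group: it alone of the 4 had Xist (232 CPM) and almost no Y-linked Ddx3y (0.881 CPM), and its summed level of 8 proliferation markers was 56.1 CPM, against 443 to 559 CPM in WT_MSC replicates 2 to 4. Comparisons with WT_MSC are given with and without it. Among KO_MSC libraries, Xist came without Ddx3y in replicate 3, and both transcripts were present in replicate 1, at 181 CPM for Xist and 41.3 CPM for Ddx3y. All 3 KO_MSC_AML libraries had Xist and all 5 WT_MSC_AML libraries had Ddx3y, so genotype and sex-linked transcripts cannot be told apart in co-cultured MSC.

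AML cells held little or none of the RNA of the 9 genes, and the co-cultured MSC held more of most of them. In AML libraries no member exceeded 1.58 CPM, the level of Ccl7 in KO_AML replicate 2, and the highest AML values were 0.938 CPM for Lif, 0.225 CPM for Ccl2 and 0.395 CPM for Cxcl5. In MSC sorted out of co-culture, Ccl7 was at 121 to 252 CPM in KO_MSC_AML and 40.3 to 49.3 CPM in WT_MSC_AML. By edgeR's filter on low counts, Ptgs2 was the one member that could be tested on the AML libraries alone. Most others entered a comparison of MSC with AML cells only through the MSC libraries, so no count of members called is given for it. Ptgs2 differed by log2 7.16 (SE 0.27, edgeR adjusted p = 5.97e-07) between KO_MSC_AML and KO_AML and by 6.31 (SE 0.24, adjusted p = 4.20e-10) between WT_MSC_AML and WT_AML. Il6 and Il11 had 0 counts in all 3 KO_AML libraries, against 12 and 58 over KO_MSC_AML. With 3 counts put in for KO_AML, KO_MSC_AML was 5.62-fold higher for Il6 and 27.2-fold higher for Il11. The lower ends of the 95% counting intervals, from the counts as they stood, were 3.90-fold and 21.4-fold. Il6 was also scarce in WT_MSC_AML, with 11 counts over the group against 2 in WT_AML, a ratio of 3.71 with a 95% counting interval of 0.810 to 34.5. Il33 was low in both cell types. It averaged 0.361 ± 0.249 CPM in WT_MSC_AML (SD, n = 5) and 0.502 ± 0.245 CPM in WT_AML (n = 3), a log2 difference of -0.51 (SE 0.64, adjusted p = 0.472).

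Per kilobase of exon, Ccl7 was the most abundant of the 9 in each MSC group. In KO_MSC_AML it averaged 227 ± 82.8 CPM per kb (SD, n = 3), followed by Ccl2 at 27.6 ± 11.5, Ptgs2 at 24.6 ± 4.15, Cxcl1 at 21.9 ± 8.45, Cxcl5 at 9.01 ± 5.39 and Lif at 3.78 ± 0.828 CPM per kb. Il11 (0.688 ± 0.289), Il6 (0.123 ± 0.0918) and Il33 (0.0768 ± 0.0670 CPM per kb) came last. The gap from Ccl7 to the next gene exceeded the spread, while Ccl2, Ptgs2 and Cxcl1 lay within 1 SD of each other, and so did Il6 and Il33. In WT_MSC_AML the order began with Ccl7 at 57.1 ± 4.38 CPM per kb (n = 5), then Ptgs2 at 18.9 ± 3.02, Cxcl1 at 15.6 ± 1.68 and Ccl2 at 14.3 ± 1.14 CPM per kb. Lif (1.27 ± 0.232) and Cxcl5 (1.24 ± 0.737 CPM per kb) were alike there and far below. In KO_MSC the leading genes were Ccl7 at 198 ± 28.4, Cxcl1 at 42.7 ± 14.4 and Cxcl5 at 16.9 ± 13.3 CPM per kb (n = 4). In WT_MSC they were Ccl7 at 103 ± 88.8, Ptgs2 at 30.3 ± 17.2 and Cxcl1 at 25.0 ± 12.1 CPM per kb (n = 4), with replicate 1 the highest of the 4 for all 3 genes.

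**Figure D2:**
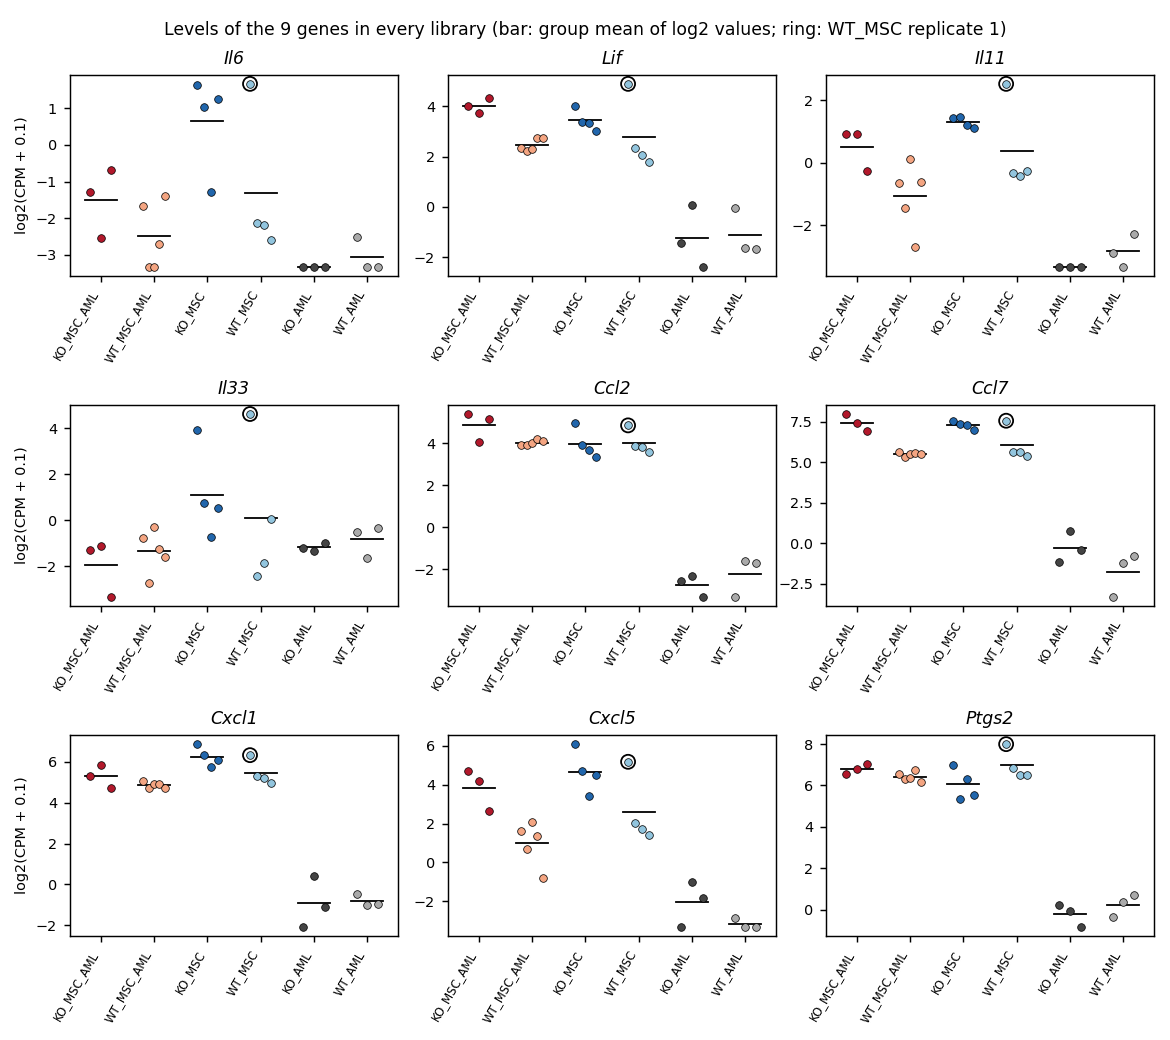
Level of each gene as log2(CPM + 0.1) in all 22 libraries, by group, with a bar at the mean of the log2 values and a ring around WT_MSC replicate 1. For Lif, Il11, Ccl7 and Cxcl5 the ringed library reaches or exceeds the KO_MSC range, and the remaining 3 of WT_MSC lie below all of KO_MSC.

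After co-culture with AML cells, MSC lacking Lama4 had more RNA for 4 of the secreted factors than WT MSC. Lif, Ccl2, Ccl7 and Cxcl5 were higher in KO_MSC_AML, 4 of the 7 members tested, with 0 lower. Among all 13710 genes tested, 16.9% were higher and 31.4% differed in either direction, so genotype calls were common in these cells. All 7 tested members had a log2 difference above 0 (median 1.57, against -0.01 over all genes tested), and all 7 had an unadjusted p under 0.05, as did 42.7% of all genes. Il6 and Il33 were below the filter. These are bulk libraries, in which fewer cells of a type and less RNA per cell cannot be told apart.

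Lif, the cytokine that maintains mouse pluripotent cells in culture and acts through LIFR and gp130, stood at 16.1, 13.0 and 20.2 CPM in KO_MSC_AML. In WT_MSC_AML it stood at 4.97, 4.56, 4.83, 6.58 and 6.62 CPM. The groups did not overlap, and the log2 fold change was 1.59 (SE 0.19, edgeR adjusted p = 0.000208).

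Ccl7, a ligand of CCR1, CCR2 and CCR3, stood at 252, 174 and 121 CPM in KO_MSC_AML. In WT_MSC_AML its values were close together, at 49.3, 40.3, 45.3, 48.3 and 45.5 CPM. Every KO library was above every WT library, and the log2 fold change was 2.01 (SE 0.19, edgeR adjusted p = 4.50e-05).

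Ccl2, the main CCR2 ligand and the genomic neighbour of Ccl7, differed less. It stood at 41.8, 16.7 and 35.6 CPM in KO_MSC_AML and at 15.1, 15.0, 15.9, 18.1 and 17.1 CPM in WT_MSC_AML. KO_MSC_AML replicate 2 lay inside the WT range and the other two lay above it. The log2 fold change was 0.95 (SE 0.23, edgeR adjusted p = 0.0105), and without KO_MSC_AML replicate 1 it was 0.69 (adjusted p = 0.0653).

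Cxcl5, a CXCR2 ligand, stood at 26.1, 18.2 and 6.13 CPM in KO_MSC_AML and at 2.97, 1.54, 4.06, 2.50 and 0.466 CPM in WT_MSC_AML. Its groups did not overlap although both were broad, and the log2 fold change was 2.89 (SE 0.59, edgeR adjusted p = 0.00604). Lif, Ccl7 and Cxcl5 were the 3 members without overlap, a pattern that 17.2% of all genes tested showed in the same direction.

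The remaining members did not pass. Cxcl1, the other CXCR2 ligand, stood at 39.7, 57.6 and 26.0 CPM in KO_MSC_AML and at 33.9, 26.2, 30.0, 30.0 and 26.5 CPM in WT_MSC_AML. KO_MSC_AML replicate 3 was the lowest of the 8 libraries (log2 difference 0.50, SE 0.21, adjusted p = 0.0991), and without it the difference was 0.75 (adjusted p = 0.00543). Ptgs2 stood at 94.7, 110.2 and 132 CPM in KO_MSC_AML and at 94.5, 80.6, 80.7, 107 and 71.4 CPM in WT_MSC_AML, overlapping ranges with a log2 difference of 0.39 (SE 0.15, adjusted p = 0.0705; 0.48 and adjusted p = 0.0312 without WT_MSC_AML replicate 4). Il11, a gp130 cytokine known for its part in bone turnover and fibrosis, stood at 1.77, 1.78 and 0.738 CPM in KO_MSC_AML and at 0.540, 0.265, 1.00, 0.0544 and 0.560 CPM in WT_MSC_AML. Its log2 difference was 1.57 (SE 0.64, adjusted p = 0.0855), and 2.00 (adjusted p = 0.0422) without WT_MSC_AML replicate 3. For Cxcl1, Ptgs2 and Il11 the omission shown is the only one at which the gene passed. Leaving out each library in turn gave 0.17 to 0.75 for Cxcl1, 0.26 to 0.50 for Ptgs2 and 1.30 to 2.00 for Il11. With the replicate block their edgeR adjusted p was 0.374, 0.155 and 0.287. With KO_MSC_AML replicate 3, whose cell type label conflicts with its title, left out, Cxcl1 joined Lif, Ccl2, Ccl7 and Cxcl5, giving 5 of 7 members higher where 32.3% of all genes differed. In KO_MSC_AML against KO_MSC 0 of 9 members passed without it, where 0.0364% of all genes did, and in the interaction 0 of 9, where 0 of all genes did. Il6 was at 12 counts in all over KO_MSC_AML and 11 over WT_MSC_AML, too few to test.

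**Figure D3:**
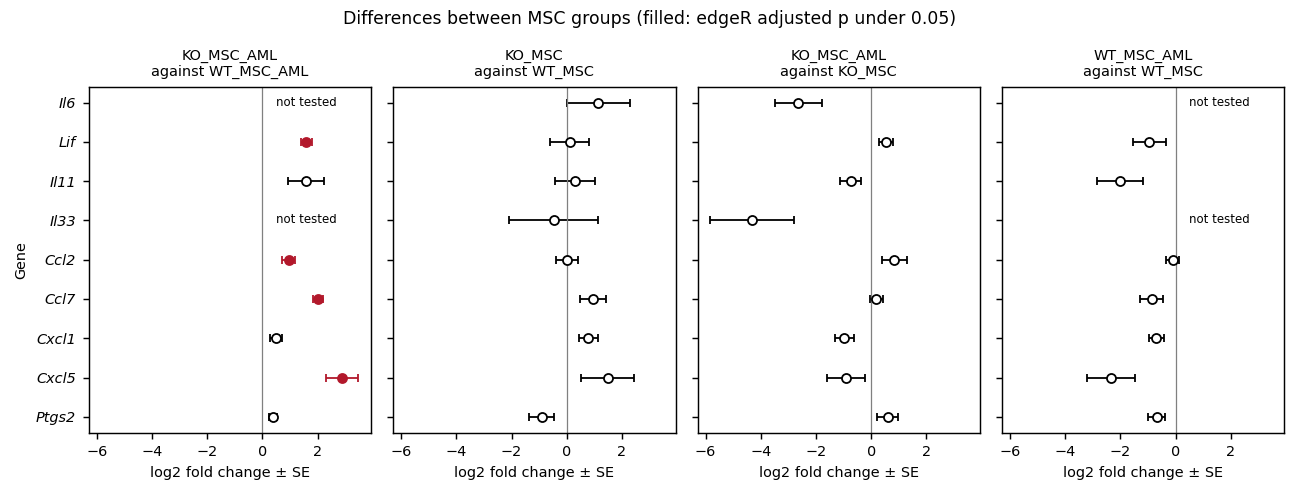
log2 fold change ± SE of each gene in 4 comparisons of MSC groups, positive when the first named group is higher. Only Lif, Ccl2, Ccl7 and Cxcl5 in KO_MSC_AML against WT_MSC_AML are filled (edgeR adjusted p under 0.05); Il6 and Il33 were below the filter in 2 of the comparisons.

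Other differences between the co-cultured groups moved alongside. The 8 proliferation markers were all lower in KO_MSC_AML than in WT_MSC_AML (summed 114 to 249 CPM against 337 to 666 CPM), for example Mcm5, a subunit of the replication helicase, at log2 -2.004 (adjusted p = 0.000595) and Top2a, a topoisomerase of dividing cells, at -1.79 (adjusted p = 0.000948). Of 9 MSC markers tested, 5 were higher and 1 was lower, with Pdgfra at 0.88 (adjusted p = 0.000294). The summed level of 12 pan-haematopoietic markers was 143 to 240 CPM in KO_MSC_AML and 64.7 to 193 CPM in WT_MSC_AML, against 5478 to 5892 CPM in the AML libraries. Arhgdib made up 125 to 208 CPM of that sum in KO_MSC_AML and 31.3 to 74.0 CPM in WT_MSC_AML. It was the 1 marker of the 12 with a log2 difference above 0 (1.55, adjusted p = 0.00195), and the median of the list was -0.61. The 6 myeloid granule markers summed to 47.9 to 204 CPM in KO_MSC_AML and 73.8 to 282 CPM in WT_MSC_AML, with 0 of 6 called and 0 of 6 above 0 (median -0.50). The 6 endothelial markers summed to 6.72 to 18.8 CPM in KO_MSC_AML and 1.49 to 4.50 CPM in WT_MSC_AML, without overlap. Tek, an angiopoietin receptor, was 1 of 3 tested and was higher (log2 6.54, adjusted p = 6.45e-05), while Emcn and Tie1 were at 0 in KO_MSC_AML and Cdh5 was at most 0.221 CPM. Tek was the 1 marker of the 3 with a log2 difference above 0, and the median of the 3 was -0.98. Macrophage markers summed to at most 2.42 CPM in KO_MSC_AML, with 6 of the 8 at 0 in all 3 libraries, and to at most 4.18 CPM in WT_MSC_AML, with 4 of 8 at 0. The part of these markers in the genotype differences of the members was not tested.

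For MSC without AML cells, the answer turned on WT_MSC replicate 1. With all 8 libraries, 0 of 9 members passed in KO_MSC against WT_MSC, where 11.6% of all 13344 genes tested did. By edgeR 0 members had an unadjusted p under 0.05 (33.6% of all genes did), and DESeq2 called 0, against 21.9% of its genes, giving no adjusted p for Lif, Il11 and Il33. The authors' deposited table calls 1 member, Ptgs2, at a log2 fold change of -0.91 (adjusted p = 0.0432), and 26.9% of its genes. Without WT_MSC replicate 1, 6 of 9 members were higher in KO_MSC and 0 lower, where 24.1% of all genes tested were higher.

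Ccl7 stood at 185, 162, 156 and 129.9 CPM in KO_MSC and at 189, 49.8, 49.5 and 42.1 CPM in WT_MSC. WT_MSC replicate 1 was the highest of the 8 libraries and the other 3 the lowest. The log2 difference was 0.95 (SE 0.48, edgeR adjusted p = 0.197) with all libraries and 1.76 (adjusted p = 5.23e-05) without that one. The WT_MSC_AML libraries and WT_MSC replicates 2 to 4 together spanned 40.3 to 49.8 CPM.

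Lif stood at 16.2, 10.4, 10.0 and 7.91 CPM in KO_MSC and at 29.6, 4.97, 4.05 and 3.31 CPM in WT_MSC, again with WT_MSC replicate 1 above all others and replicates 2 to 4 below all KO_MSC libraries. Its log2 difference was 0.10 (SE 0.70, edgeR adjusted p = 0.934), against 1.44 (adjusted p = 0.00327) without replicate 1. Il11 had the same layout, at 2.57, 2.65, 2.20 and 2.08 CPM in KO_MSC and 5.65, 0.692, 0.655 and 0.728 CPM in WT_MSC (0.31, SE 0.73, adjusted p = 0.787; 1.78 and adjusted p = 0.00140 without replicate 1).

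The CXC chemokines followed suit. Cxcl5 stood at 67.4, 25.6, 10.5 and 22.7 CPM in KO_MSC and at 35.9, 3.98, 3.16 and 2.58 CPM in WT_MSC, so that only WT_MSC replicate 1 reached the KO range. Its log2 difference was 1.47 (SE 0.95, edgeR adjusted p = 0.30), and 3.27 (adjusted p = 0.00662) without that library. Cxcl1 stood at 117, 80.5, 53.2 and 69.3 CPM in KO_MSC and at 80.4, 39.8, 36.6 and 31.0 CPM in WT_MSC (0.78, SE 0.34, adjusted p = 0.150; 1.16 and adjusted p = 0.00734).

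Il6 was scarce in all but 4 MSC libraries. It stood at 3.00, 1.93, 0.314 and 2.26 CPM in KO_MSC and at 3.06, 0.130, 0.119 and 0.0662 CPM in WT_MSC. WT_MSC replicate 1 matched the highest KO library, and the log2 difference was 1.15 (SE 1.15, edgeR adjusted p = 0.504), or 4.03 (adjusted p = 0.00490) without it. Il33, a nuclear alarmin that signals through ST2 once released, was carried by the first replicate of each group, at 14.8, 1.58, 0.502 and 1.37 CPM in KO_MSC and 24.3, 0.0865, 0.179 and 0.927 CPM in WT_MSC. Its log2 difference was -0.48 (SE 1.62, adjusted p = 0.854) with all libraries, and 3.61 (adjusted p = 0.0768) without WT_MSC replicate 1.

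Ccl2 did not share the layout of Ccl7. It stood at 31.6, 15.0, 12.5 and 10.2 CPM in KO_MSC and at 28.7, 14.3, 13.9 and 12.0 CPM in WT_MSC, with the first replicate of each group high and the rest interleaved. The log2 difference was 0.02 (SE 0.41, edgeR adjusted p = 0.984), and 0.38 (adjusted p = 0.435) without WT_MSC replicate 1. Ptgs2 leaned the other way from the chemokines. It stood at 126, 40.5, 79.8 and 46.7 CPM in KO_MSC and at 255, 116, 92.2 and 90.6 CPM in WT_MSC, a log2 difference of -0.91 (SE 0.45, adjusted p = 0.193), or -0.44 (adjusted p = 0.376) without WT_MSC replicate 1.

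When replicate 1 was left out of both groups, Il6 fell below the filter and 5 of the 8 members tested were higher in KO_MSC (Lif, Il11, Ccl7, Cxcl1 and Cxcl5), with Ptgs2 lower at log2 -0.83 (edgeR adjusted p = 0.0379); 24.9% of all genes tested were higher and 23.4% lower. With only the 5 libraries that had Ddx3y without Xist (KO_MSC replicates 2 and 4, WT_MSC replicates 2 to 4), 7 members were higher and Ptgs2 was lower at -1.19 (adjusted p = 1.33e-06), against 30.2% and 29.8% of all genes tested. Both selections were made after the values had been seen. The 4 KO_MSC libraries had summed proliferation markers of 23.9 to 48.8 CPM, near the 56.1 CPM of WT_MSC replicate 1 and below the other WT_MSC libraries. The endothelial markers summed to 7.72 to 22.5 CPM in KO_MSC and 0.728 to 5.86 CPM in WT_MSC, with Tek at log2 3.23 (adjusted p = 0.0893; 5.92 and adjusted p = 0.000573 without WT_MSC replicate 1). Of the 6 markers only Tek could be tested, with or without that library. Whether these differences have a part in the members' levels was not tested.

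**Figure D4:**
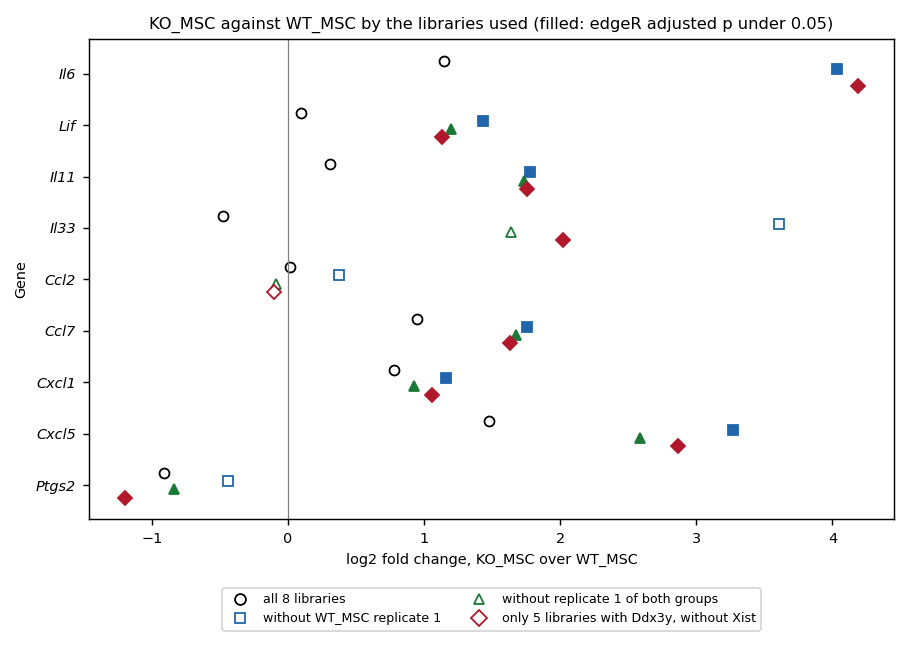
log2 fold change of each gene in KO_MSC over WT_MSC (x axis) with 4 choices of libraries, filled where the edgeR adjusted p was under 0.05. Lif, Il11, Ccl7, Cxcl1 and Cxcl5 are filled in each choice without WT_MSC replicate 1, and none of the 9 is filled with all 8 libraries.

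Co-culture with AML cells gave no call for any member in either genotype by edgeR. In KO_MSC_AML against KO_MSC, 0 of 9 passed, where 0.743% of all genes did; 3 members (Il6, Il33 and Cxcl1) had an unadjusted p under 0.05, against 24.5% of all genes, and DESeq2 called those 3 lower, against 5.73% of its genes. The authors' deposited table calls Il33 lower, at a log2 fold change of -4.36 (adjusted p = 0.0227), and 15.9% of its genes. Il6 stood at 0.309, 0.0713 and 0.517 CPM in KO_MSC_AML, against 3.00, 1.93, 0.314 and 2.26 CPM in KO_MSC. Its ranges overlapped through KO_MSC replicate 3, with a log2 difference of -2.64 (SE 0.84, edgeR adjusted p = 0.113), or -3.00 (adjusted p = 0.0278) without that library. Il6 fell below the filter with KO_MSC replicate 1, 2 or 4 left out. It did not pass with any 1 KO_MSC_AML library left out. With KO_MSC replicate 3 left out, Il6 was the 1 member called, where 4.52% of all genes tested were lower. Ddx3y was at 1.82 CPM in that library, at 41.3 to 69.6 CPM in the other KO_MSC libraries and at most 0.926 CPM in KO_MSC_AML. Co-culture and sex-linked transcripts therefore cannot be told apart once it is left out.

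Il33 stood at 0.309, 0.356 and 0 CPM in KO_MSC_AML, below every KO_MSC library (-4.31, SE 1.51, edgeR adjusted p = 0.143). In KO_MSC, 241 of its 294 counts were in replicate 1 (14.8 CPM), and the other libraries were at 0.502 to 1.58 CPM. Without KO_MSC replicate 1, Il33 fell below the filter. Il11 did not overlap either, at 1.77, 1.78 and 0.738 CPM against at least 2.08 CPM in KO_MSC (-0.74, SE 0.38, adjusted p = 0.266). Il33 and Il11 were the 2 members without overlap, a pattern that 10.2% of all genes tested showed in that direction. Cxcl1, at 39.7, 57.6 and 26.0 CPM in KO_MSC_AML and 53.2 to 117 CPM in KO_MSC, gave -0.97 (SE 0.34, adjusted p = 0.142). The values of Lif (0.55, SE 0.25), Ccl2 (0.84, SE 0.45), Ccl7 (0.19, SE 0.24) and Ptgs2 (0.61, SE 0.38) were above 0, and that of Cxcl5 (-0.92, SE 0.70) below it.

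In WT_MSC_AML against WT_MSC, 0 of the 7 members tested passed, where 0.744% of all genes did, and DESeq2 called 0, against 3.37% of its genes. All 7 log2 differences were below 0 (median -0.87), and 4 (Il11, Cxcl1, Cxcl5 and Ptgs2) had an unadjusted p under 0.05, against 18.3% of all genes. The authors' deposited table calls Il33, at -4.19 (adjusted p = 0.0126), and 9.60% of its genes. In WT_MSC, 469 of the 488 counts of Il33 were in replicate 1 (24.3 CPM). Replicates 2 to 4 were at 0.0865 to 0.927 CPM, against 0.0530 to 0.706 CPM in WT_MSC_AML. Without WT_MSC replicate 1 the differences shrank or turned: the log2 difference of Cxcl5 was -0.51 (edgeR adjusted p = 0.596) where it was -2.33 with all libraries, that of Il11 was -0.52 where it was -2.01, that of Lif 0.41 where it was -0.95 and that of Ccl2 0.27 where it was -0.10. Of the members 0 passed there, and 1.53% of all genes.

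The difference between the 2 co-culture effects was tested as an interaction over the 16 MSC libraries. By edgeR 0 of 9 members passed, as did 0 of all 14247 genes; 1 member, Ptgs2, had an unadjusted p under 0.05 (7.73% of all genes did), and DESeq2 called 0 members and 29 genes (0.204%). Ptgs2 had a log2 interaction of 1.29 (SE 0.51, adjusted p = 0.578). Lif was at 1.48 (SE 0.78), Ccl7 at 1.05 (SE 0.56), Ccl2 at 0.93 (SE 0.51) and Cxcl5 at 1.40 (SE 1.23). Without WT_MSC replicate 1 they were 0.14, 0.24, 0.57 and -0.40, with 0 members passing and 0.0775% of all genes.

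In AML cells, only Ptgs2 had enough counts to test by the genotype of the stroma. It stood at 1.08, 0.839 and 0.456 CPM in KO_AML and at 0.669, 1.18 and 1.53 CPM in WT_AML, overlapping ranges (log2 -0.49, SE 0.51, edgeR adjusted p = 0.948), where 6 genes, 0.0482% of those tested, passed. Ccl7 had 51 counts over KO_AML and 15 over WT_AML, and Cxcl1 had 35 and 32, below the filter. RNA of MSC genes was present in the AML libraries. Lama4 was at 1.38 to 3.17 CPM in WT_AML and at most 0.0456 CPM in KO_AML. The 10 MSC markers summed to 186 to 317 CPM in WT_AML and 96.0 to 375 CPM in KO_AML, highest in KO_AML replicate 2. In WT_MSC_AML they summed to at least 29473 CPM. The part of MSC RNA in the members' counts of the AML libraries was not tested.

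The receptors and transducers of these ligands were also measured in MSC, as a list of 22 genes of which 14 were tested in each comparison of MSC groups. The counts of this list and the next 4 stand against all genes tested, of which 16.9% were higher and 14.5% lower in KO_MSC_AML against WT_MSC_AML. In KO_MSC against WT_MSC it was 5.24% higher and 6.34% lower with all libraries, and 24.1% higher and 21.9% lower without WT_MSC replicate 1, so calls of any gene were more common at that setting. In KO_MSC_AML against WT_MSC_AML, 6 rose and 0 fell (median log2 0.67), among them Il1rap, the shared co-receptor of IL-1 and IL-33, at 2.38 (SE 0.17, adjusted p = 4.93e-06), and Il6st, which encodes gp130, at 1.21 (SE 0.16, adjusted p = 0.000286). In KO_MSC against WT_MSC, 4 rose and 0 fell (median 0.73), including Il1rap at 1.79 (SE 0.28, adjusted p = 0.0165) and Il11ra1, the IL-11 receptor chain, at 0.82 (SE 0.13, adjusted p = 0.0149). Without WT_MSC replicate 1, 9 rose and 1 fell there, with Il1rap at 2.19. In both comparisons of co-culture with culture alone, and in the interaction, 0 passed, with or without that library.

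Around Ptgs2, 9 of 11 genes of prostaglandin synthesis and breakdown were tested. In KO_MSC_AML against WT_MSC_AML, 3 rose and 2 fell. Ptges, the prostaglandin E synthase coupled to COX-2, rose by log2 1.51 (SE 0.17, edgeR adjusted p = 0.000115) and Ptgs1, the constitutive cyclooxygenase, by 0.94 (SE 0.22, adjusted p = 0.00859). Ptgis, the prostacyclin synthase, fell by 3.68 (SE 0.42, adjusted p = 0.000341) and Slco2a1, a prostaglandin uptake transporter, by 0.75 (SE 0.26, adjusted p = 0.0484). In KO_MSC against WT_MSC, 0 rose and 3 fell, including Ptgis at -2.18 (SE 0.41, adjusted p = 0.0253) and Slco2a1 at -1.87 (SE 0.45, adjusted p = 0.0376). Leaving out WT_MSC replicate 1, 2 rose and 3 fell, with Ptgis at -2.35 and Slco2a1 at -2.12.

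Of the NF-kappaB subunits, regulators and feedback genes, 24 were tested in KO_MSC_AML against WT_MSC_AML, where 8 rose and 3 fell. Vcam1, an adhesion molecule for leukocytes, rose by log2 3.52 (SE 0.23, edgeR adjusted p = 3.99e-06) and Tlr4, the lipopolysaccharide receptor, by 0.89 (SE 0.14, adjusted p = 0.000886). The subunit genes Rela (-0.54, SE 0.08, adjusted p = 0.000998) and Nfkb2 (-0.66, SE 0.10, adjusted p = 0.00104) fell. In KO_MSC against WT_MSC, 1 of 23 rose, the IL-1 receptor Il1r1 at 0.74 (adjusted p = 0.0311), and 1 fell, the feedback inhibitor Tnfaip3 at -0.97 (adjusted p = 0.0494). Without WT_MSC replicate 1 it was 10 that rose and 3 that fell, with Il1r1 at 0.72 and Tnfaip3 at -1.06. The median of the list was 0.15 in co-cultured MSC and 0.31 in MSC alone with all libraries, against -0.01 and 0.01 over all genes tested.

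Other cytokines and chemokines did not move as a block. Of 13 tested in KO_MSC_AML against WT_MSC_AML, 5 rose and 1 fell: Cxcl14, a chemokine of epithelia and fibroblasts, rose by log2 5.34 (SE 0.95, adjusted p = 0.00416), Il15, a lymphocyte growth factor, by 1.88 (SE 0.29, adjusted p = 0.000931), and Clcf1, another gp130 ligand, fell by 1.05 (SE 0.35, adjusted p = 0.0439). Of 14 tested in KO_MSC against WT_MSC, 2 rose, Il34, a ligand of the CSF1 receptor, at 2.12 (adjusted p = 0.0264) and Il15 at 1.28 (adjusted p = 0.0414), and Clcf1 fell (-1.02, adjusted p = 0.0300). Once WT_MSC replicate 1 was left out, 15 were tested, of which 5 rose and 1 fell, with Il34 at 2.02, Il15 at 1.67 and Clcf1 at -1.07.

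Immediate early genes, which rise within minutes of cell dissociation, were abundant in all MSC, with 16 genes summing to 3780 to 8867 CPM in KO_MSC_AML, 5188 to 8128 CPM in WT_MSC_AML, 6725 to 8035 CPM in KO_MSC and 4987 to 7217 CPM in WT_MSC. The lowest WT_MSC library on that sum was replicate 1, which was the highest of its group for each of the 9 members. In KO_MSC_AML against WT_MSC_AML 2 rose and 2 fell, with Atf3, a stress-induced transcription factor, at log2 -1.91 (adjusted p = 0.00467), and in KO_MSC against WT_MSC 3 rose, with Zfp36, which promotes decay of cytokine mRNAs, at 0.94 (adjusted p = 0.0101; 6 rose and 2 fell without WT_MSC replicate 1, Zfp36 at 0.95).

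The genes whose profile over the 16 MSC libraries lay nearest to each member were found by the root-mean-square difference of centred log2 levels, as a description. The closest match of all was Sdc1, a syndecan, to Cxcl1, at 0.175. Wnt5a, Cdkl1 and Pappa were nearest to Ccl7 (0.239 to 0.267), Lhfpl2, Ak4 and Tsku to Lif, and Spsb1, Reck and Bhlhe40 to Il11. Ptx3, a secreted pentraxin, was nearest to Cxcl5 (0.491), Tspan7 to Il6 (0.332), Heph to Il33 (0.573), Ptchd4 to Ccl2 (0.293) and Tle1 to Ptgs2 (0.316). Among the members themselves, Lif and Ccl7 were each other's nearest (0.470), as were Cxcl1 and Il11 (0.477) and Ccl2 and Ptgs2 (0.529). The difference between Ccl2 and Ptgs2 was near the spread of each gene's own profile, 0.564 and 0.582. Outside genes were closer in every case: the nearest member ranked from 57th of 13044 candidates, for Lif, to 1447th, for Ccl2. Over the 15 libraries without WT_MSC replicate 1, Sdc1, Ptx3, Tspan7 and Lhfpl2 were again the first for Cxcl1, Cxcl5, Il6 and Lif, while Pm20d1 was first for Il33, Dusp5 for Ptgs2, Agrn for Ccl7, Reck for Il11 and Steap1 for Ccl2. All profiles share the same libraries.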

How the data were processed

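The authors deposited raw counts per gene, made, per the file headers, with STAR and featureCounts (STAR 2.6.1d, per the submitters' processing notes, for GRCm38). Libraries were made from SMART-Seq v4 cDNA and read single-end, per the labels' protocols; strand setting and annotation version: not given in the sources used here. The same deposited table holds the authors' log2 fold changes and adjusted p-values from DESeq2, per the file headers. Groups follow the sample titles. Each comparison was fitted on the counts of its own groups (the interaction on the 4 MSC groups) with edgeR 4.0.16 in R 4.3.3: TMM, filterByExpr, robust two-sided quasi-likelihood F-test, Benjamini-Hochberg adjustment over all genes tested, threshold 0.05. The fits were tested on simulated data, where they recovered 37% of 2-fold changes in KO_MSC against WT_MSC and 30% in the interaction. In the other comparisons of MSC groups they recovered 58% to 67%. Standard errors are the log2 fold change divided by the root of F. CPM use TMM factors over all 22 libraries, and exon lengths come from GENCODE. Counting intervals cover counting error only, since PCR copies carry no molecular identifiers. Counts put in for a group at 0 do not cover the counting error of the other group. Likeness of profiles used log2(CPM + 0.5). DESeq2 1.42.0, its size factors, no filter, each library left out and a replicate block were alternatives. Genes named outside the 9 are up to 2 that rose and 2 that fell per list and comparison by smallest adjusted p, of which part is given. The 9 genes, lists and motifs were chosen with earlier results of these data known. The smallest chi-square between replicates of a group came to 4.42 for each degree of freedom, and every library was kept as a sample of its own.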

Additional observations from a re-analysis of the deposited data

Results flagged for a closer look

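A library was picked out where its gap to the nearest other library took up more of the group's range than Dixon's 95% critical value allows. Of 27 gene and group pairs with 4 or 5 libraries, 9 were picked out. The pairs share libraries, so the count cannot be set against a rate expected by chance, and the share over all genes was not computed. WT_MSC replicate 1 stood apart over all genes, with a chi-square per degree of freedom of 194 to 242 against WT_MSC replicates 2 to 4. Among those replicates it was 4.42 to 8.31. In 8 of the 9 pairs picked out WT_MSC replicate 1 was the highest of 4, with Il6 at 3.06, Lif at 29.6, Il11 at 5.65, Il33 at 24.3, Ccl2 at 28.7, Ccl7 at 189, Cxcl5 at 35.9 and Ptgs2 at 255 CPM. In the ninth, KO_MSC replicate 1 was the highest of 4 for Il33, at 14.8 CPM. WT_MSC replicate 1 had Lama4 at 344 CPM, within 320 to 346 CPM for its group.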

How the results depend on the processing

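Of the single-gene results under other settings, 679 kept direction and side of the threshold, 26 newly passed, 3 no longer passed and 33 turned. The tally pools all comparisons, among them MSC against AML cells, so it does not describe the comparisons of MSC groups alone. The cause of the changes was not tested. In KO_MSC against WT_MSC, Ccl2 turned to -0.0043 with no filter, -0.033 with the replicate block, -0.089 without replicate 1 of both groups and -0.10 in the Ddx3y libraries, where Il33 was at 0.88, 1.64 and 2.02 under the last 3 settings. Cxcl5 turned to 0.66 in KO_MSC_AML against KO_MSC with only the 4 libraries that had Xist without Ddx3y. There KO_MSC replicate 3 was the only KO_MSC library. Members passing numbered 3 by DESeq2 in KO_MSC_AML against KO_MSC, 2 (Lif, Ccl7) with the replicate block in KO_MSC_AML against WT_MSC_AML (Ccl2 adjusted p = 0.0942, Cxcl5 0.0828, edgeR), and, in KO_MSC against WT_MSC, 6 without replicate 1 of both groups and 8 in the Ddx3y libraries. Whether replicate numbers pair the samples is not given by the labels. Same-number correlations of deviations ran from -0.37 to 0.04 in KO_MSC_AML against WT_MSC_AML and from -0.06 to 0.27 in KO_MSC against WT_MSC. They ran from -0.07 to 0.27 in KO_MSC_AML against KO_MSC and from -0.03 to 0.30 in KO_AML against WT_AML. These correlations were not set against those of other numbers, so they do not decide it. Leaving out 1 library at a time, members passing ranged from 0 to 6 in KO_MSC against WT_MSC, where 0.407% to 46.0% of all genes passed. The range was 3 to 5 in KO_MSC_AML against WT_MSC_AML (21.1% to 33.2% of all genes) and 0 to 1 in KO_MSC_AML against KO_MSC (0% to 9.93%). The log2 ranges of results that turned were -0.21 to 1.44 for Lif, -0.45 to 0.38 for Ccl2 and -2.46 to 3.61 for Il33 in KO_MSC against WT_MSC, -1.24 to 0.41 for Lif and -0.24 to 0.27 for Ccl2 in WT_MSC_AML against WT_MSC, -0.11 to 0.42 for Ccl7 in KO_MSC_AML against KO_MSC, and in the interaction -2.72 to 0.86 for Il6, -0.21 to 1.69 for Il11, -0.40 to 2.08 for Cxcl5 and -4.25 to 1.80 for Il33. Over all genes, KO_MSC against WT_MSC gave 1545 calls, 3195 by DESeq2, 270 with the block, 6445 without both first replicates, 8178 in the Ddx3y libraries and 55 to 6242 with 1 library left out. WT_MSC_AML against WT_MSC gave 100 calls, 543 by DESeq2, 27 with the block and 26 to 255. KO_MSC_AML against KO_MSC gave 100, 58 with DESeq2 size factors, 1773 by DESeq2, 214 unfiltered and 0 to 1324. KO_MSC_AML against WT_MSC_AML gave 4306, 1157 with the block and 2958 to 4535; the interaction gave 0, 29 by DESeq2 and 0 to 81; KO_AML against WT_AML gave 6, 20 by DESeq2, 49 unfiltered, 58 with the block and 1 to 28. At this depth Il6 (12 and 11 counts) and Il33 (9 and 33 counts) were below the filter in KO_MSC_AML against WT_MSC_AML.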
